A study of Homo sapiens with 3 samples.

Results

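The response of AsPC-1 cells to si#1, the first of 2 small interfering RNAs (siRNAs) against LINC00941, was described against the control siRNA (siNC). Of 16463 listed genes, the 12084 whose mean read count over the si#1 and siNC libraries was at least 100 were taken as measured. AsPC-1 is an established human pancreatic adenocarcinoma cell line. Cells received 200 nM of siNC, si#1 or si#2, and total RNA was collected 1 day later and sequenced in 1 library per siRNA. All 3 groups share the cell line, the dose and the day, and no library of untransfected cells was analysed here. The values of si#2 stand beside those of si#1 as a description, since both are read against the same siNC library and agreement between them is no independent support. With 1 library on each side there is no replicate check and no p-value is given. An interval beside a fold change is the exact 95% Clopper-Pearson interval of the ratio of 2 read counts, and it covers counting error only. It does not hold the error of the normalization, which is larger than the counting error for genes with very many reads.

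LINC00941 is a long intergenic non-coding RNA (lncRNA) that was studied because its level follows the mitogen-activated protein kinase (MAPK) pathway, which carries signals from growth factor receptors through RAS, RAF, MEK and ERK. An siRNA is a short RNA duplex. Its guide strand is loaded into an Argonaute protein and directs cleavage of a transcript that pairs with it along its whole length. The first bases of the guide, called the seed, can also pair with short matches in the 3′ untranslated regions (UTRs) of other messenger RNAs, in the way of a microRNA, so values are given here both for the intended target and for genes that hold a seed match.

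The target of si#1 is shown because the sites with seed matches are compared with it. It was read from the GRCh38 reference, where it occurs 1 time on chromosome 12, in the LINC00941 exon from 30800534 to 30800601 on the plus strand. Capitals mark the 7 bases that pair with bases 2 to 8 of the guide.
LINC00941, si#1 target, chr12:30800581-30800599: gcctccatattCATGAACt
The seed match was found 1 time in the annotated exons of LINC00941.

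LINC00941 had 1551 reads in siNC, 214 in si#1 and 273 in si#2. Both siRNA libraries lay far below the control. The log2 fold change with si#1 was −2.89 (−3.10 to −2.68), which is 7.42-fold lower, and the TPM, a level that accounts for transcript length and depth, was 13.5 in siNC and 1.65 with si#1. Of the reference genes, GAPDH had 235687 reads in siNC, 251907 in si#1 and 254760 in si#2, and B2M had 45841, 51743 and 45883. Their log2 fold changes with si#1 were 0.00 and 0.11. The normalization gave GAPDH the same value in both libraries, so its 0.00 is no check of the scaling. The log2 ratio of the TPM values was −0.08 for GAPDH and −0.0007 for B2M. As the RNA is from bulk cultures, fewer cells of a kind and less RNA per cell cannot be told apart in any of the values.

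The 3 libraries held 88690997 to 92510692 reads over the listed genes, and 99.9% of these lay on the measured genes in each library. Epithelial and ductal markers were measured for 19 of 22 genes, and their summed reads were 976245 in siNC, 845893 in si#1 and 1292171 in si#2. KRT8, KRT18 and KRT19, the keratins of simple epithelia, led them. None of 10 acinar and endocrine pancreas markers was listed. Of 13 immune and endothelial markers 2 were measured, with CD68 at 2663 to 2819 reads, and of 17 mesenchymal markers 4 were measured, VIM at 224492 to 243250 reads, LUM at 23660 to 27075, ZEB1 at 4074 to 4325 and SNAI2 at 1895 to 2069.

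With si#1, 214 of the 12084 genes were at least 2-fold higher (1.77%) and 459 were at least 2-fold lower (3.8%). Another 9833 genes (81.4%) stayed within 1.5-fold. The median log2 fold change of all measured genes was 0.05, with quartiles of −0.25 and 0.30. The genes past 4-fold numbered 12 higher and 25 lower. Genes that fell carried more reads than genes that rose, with a median of 1999 reads in siNC and 741 with si#1 against 246.5 and 616.5. For 57 of the genes that rose, siNC was under 100 reads, and for 68 of those that fell, si#1 was, so these passed the count minimum through their higher library. All 673 counting intervals lay on 1 side of 0, and for 109 genes that rose and 323 that fell the whole interval lay beyond 2-fold. The ratio of the TPM values, which are not quantile-normalized, also reached 2-fold for 135 of the 214 higher and 453 of the 459 lower genes, and pointed the other way for none. Its median over all measured genes was −0.09 on the log2 scale. In the plot of fold change against read count, the genes past 2-fold spread over the whole range of counts but were more frequent at low counts. In the fifth of genes with the fewest reads (means of 100 to 606.5), 119 rose (4.92%) and 147 fell (6.08%). In the fifth with the most reads, 10 rose (0.41%) and 58 fell (2.40%).

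**Figure D1:**
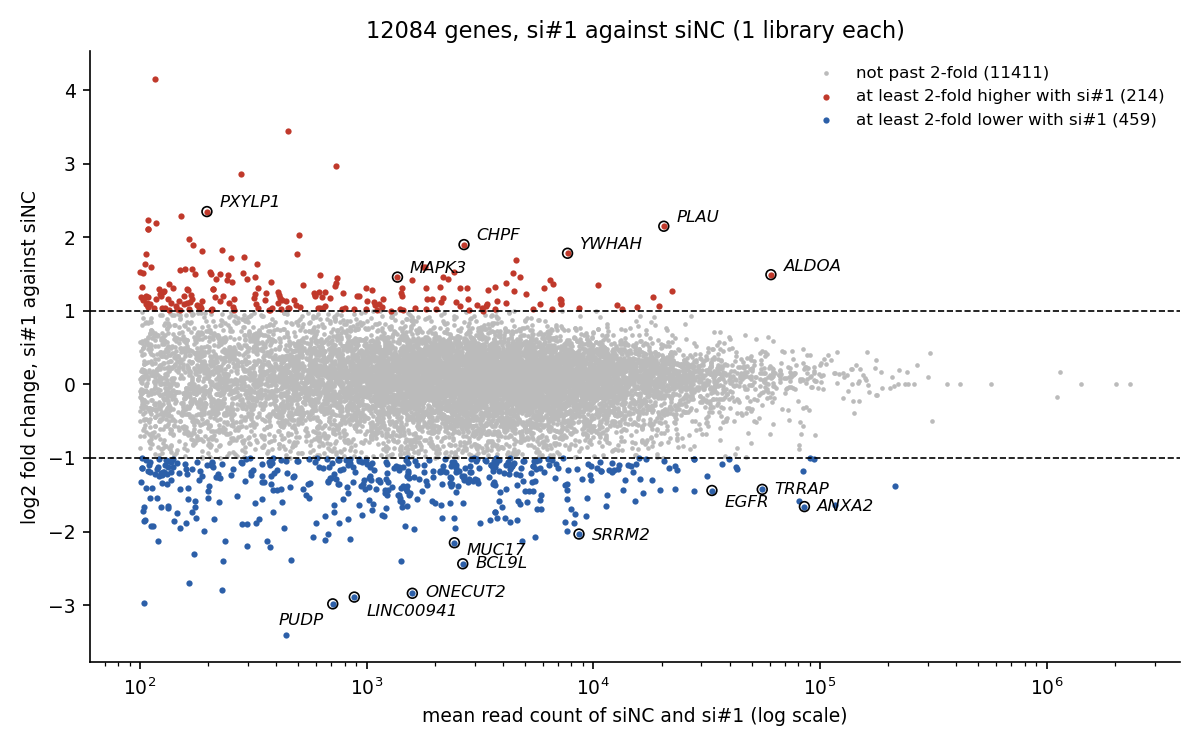
Each point is 1 of the 12084 measured genes, placed by its mean read count over siNC and si#1 (log scale) and its log2 fold change, with dashed lines at 2-fold. Genes that fell (459, blue) outnumber genes that rose (214, red), and LINC00941 lies among the lowest points at −2.89.

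The largest rise outside of readthrough genes was that of GPRASP2, a sorting protein of G protein-coupled receptors, with 162 reads in siNC, 1310 in si#1 and 594 in si#2. CPT1B, the muscle form of the mitochondrial carnitine palmitoyltransferase, had 66, 494 and 245 reads. Both are joined to a neighbour in a readthrough gene whose reads moved the other way. CHKB-CPT1B went from 590 reads in siNC to 139 with si#1, so that the sum of CPT1B and CHKB-CPT1B was 656 and 633. The sum of GPRASP2 and ARMCX5-GPRASP2 was 1515 and 1966. How reads were shared between the overlapping genes was not tested.

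PLAU, the urokinase-type plasminogen activator, had the largest rise of the genes whose mean reached 5000 reads. It had 7305 reads in siNC, 33635 in si#1 and 17794 in si#2, with a log2 fold change of 2.15 (2.11 to 2.19) with si#1. Its level in TPM was 51.5 in siNC and 210.0 with si#1. F3, tissue factor, the starter of coagulation, had 5567 reads in siNC, 11657 in si#1 and 21672 in si#2. Both genes were above siNC in both siRNA libraries, PLAU more with si#1 and F3 more with si#2. F5, coagulation factor V, fell from 1356 reads to 326 with si#1 and 275 with si#2. PLAUR, the urokinase receptor, had 8778, 13037 and 11298 reads, a log2 fold change of 0.56 with si#1. Over the list, 3 of 12 measured genes rose and 1 fell, beside 1.77% and 3.8% of all measured genes, and the median log2 fold change was 0.45 against 0.05 for all measured genes.

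Of 31 measured genes of heparan and chondroitin sulfate synthesis, 4 rose and 0 fell, beside 1.77% and 3.8% of all measured genes. Heparan and chondroitin sulfate are long sulfated sugar chains carried by proteoglycans of the cell surface and matrix. PXYLP1, a phosphatase that acts on the xylose of the linker region, had 63 reads in siNC, 332 in si#1 and 216 in si#2. CHPF, the chondroitin polymerizing factor, had 1111, 4269 and 5057 reads, and its log2 fold change with si#1 was 1.90 (1.80 to 2.00). HS6ST1, a heparan sulfate 6-O-sulfotransferase, had 879, 2742 and 3125 reads, and CHSY3, a chondroitin sulfate synthase, had 127, 359 and 242. All 4 genes were higher in both siRNA libraries than in siNC. The list's median was 0.20 and its lowest gene was UST, a uronyl 2-sulfotransferase, at −0.70. Of 33 measured enzymes of N-glycans and O-glycans, FUT1, which adds fucose to blood group H chains, rose from 40 reads to 177, and MOGS, the glucosidase that starts N-glycan trimming, rose from 3439 to 9410. B4GALT1, a galactosyltransferase, fell from 3982 to 1633.

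Among other genes with many reads, YWHAH, the eta form of the 14-3-3 adaptor proteins, had 3401 reads in siNC, 12003 in si#1 and 11389 in si#2 (log2 fold change 1.78 with si#1). YWHAZ, the zeta form, went the other way, with 123622, 64996 and 95981 reads (−1.02). YWHAZ was at −0.99 with TMM factors, another scaling of the libraries, and did not pass 2-fold on either TPM scale. The 5 other 14-3-3 genes did not pass 2-fold. SAR1B, a small GTPase of transport out of the endoplasmic reticulum, had 3666, 9657 and 7236 reads, and HIPK3, a homeodomain-interacting kinase, had 5807, 15206 and 10699. POLR3E, a subunit of RNA polymerase III, had 3407, 8663 and 9883 reads. PPP1R14B, a phosphatase inhibitor, had 12754, 31648 and 31690. In each of these 4 rises both siRNA libraries were above siNC.

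ALDOA, the aldolase of glycolysis, had 31532 reads in siNC, 90012 in si#1 and 28320 in si#2, a log2 fold change of 1.49 with si#1 and −0.11 with si#2. An overlapping gene of RefSeq, LOC112694756, had 60878, 33348 and 90098 reads, so that the 2 genes together had 92410 reads in siNC and 123360 with si#1. ALDOA was the only 1 of 19 measured glycolysis genes past 2-fold, beside 5.57% of all measured genes, and the list's median was 0.18. The remaining rises among the 15 largest were of genes with few reads in siNC. PPP1R3G, a glycogen-targeting subunit of protein phosphatase 1, had 37 reads in siNC, 179 in si#1 and 162 in si#2. LIMD2, a LIM domain protein, had 41, 194 and 57, and ZNF497, a zinc finger protein, had 40, 177 and 123. MYB, a transcription factor of progenitor cells, had 80, 294 and 135 reads, and PGF, placental growth factor, had 214, 770 and 623. SMIM3 (65, 264 and 169 reads) and TMEM98 (70, 272 and 123 reads), both membrane proteins, complete these rises together with MAP3K12, a kinase of the JNK pathway with 97, 363 and 180 reads. MAP3K12 overlaps PCBP2, which had 15749 reads in siNC and 8468 with si#1.

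Outside of readthrough genes, the largest fall was that of PUDP, a pseudouridine 5′-phosphatase, with 1257 reads in siNC, 161 in si#1 and 706 in si#2. Its log2 fold change was −2.98 (−3.23 to −2.75) with si#1 and −0.84 with si#2. ONECUT2, a homeobox transcription factor, had 2788, 395 and 723 reads (−2.84 with si#1). MBD6, a methyl-CpG-binding domain protein, had 285, 44 and 125, and USP46, a deubiquitinating enzyme, had 2379, 461 and 601. All 4 were lowest with si#1 and intermediate with si#2. ANKHD1, a protein with ankyrin repeats, had 7854, 1847 and 4178 reads, but the readthrough gene ANKHD1-EIF4EBP3 that contains it had 860, 2697 and 15, and the sum of both was 8714 in siNC and 4544 with si#1. NPIPB3 and NPIPB4, near-identical copies of 1 family between which reads can be split, fell to 75 and 90 reads from 389 and 385. PROSER1 had 1060, 248 and 436 reads, and the lncRNAs LINC01004 and LOC100190986 had 615 and 487 reads in siNC and 137 and 108 with si#1.

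**Figure D2:**
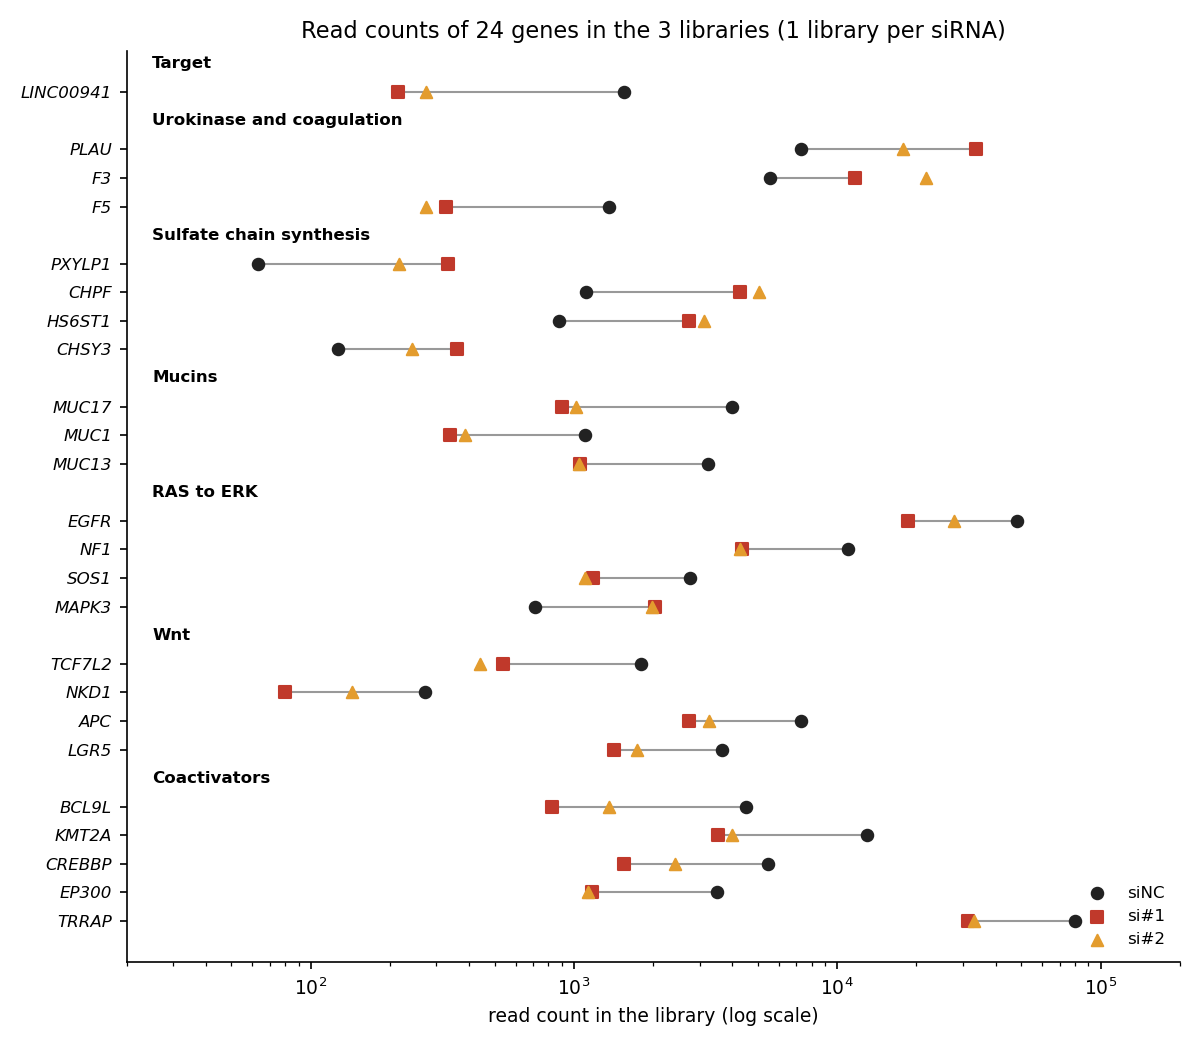
Read counts (log scale) of 24 genes, grouped by role, in siNC (circles), si#1 (squares) and si#2 (triangles), 1 library each, with a line from siNC to si#1. LINC00941 goes from 1551 to 214 reads and PLAU from 7305 to 33635. The genes passed 2-fold with si#1, and si#2 is read against the same siNC library.

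Of the 42 gene lists, that of large coactivators of chromatin and transcription held the most falls. These proteins write or remove histone marks, remodel nucleosomes or link transcription factors to RNA polymerase II. Of its 43 measured genes, 18 fell and 0 rose, beside 3.8% and 1.77% of all measured genes, and the median was −0.77. On the log2(TPM + 1) scale 9 of them fell, beside 202 of all 12084 measured genes. The list was made with earlier results of these libraries known, so its direction is no independent evidence. BCL9L, a coactivator of beta-catenin, had 4483 reads in siNC, 828 in si#1 and 1358 in si#2 (−2.44 with si#1). KMT2A, a histone H3 lysine 4 methyltransferase, had 12920, 3534 and 3997 reads (−1.88). CREBBP, a histone acetyltransferase, had 5453, 1547 and 2415, and its paralog EP300 had 3508, 1171 and 1130. In each of these 4 genes both siRNA libraries were below siNC. Among the other methyltransferases, KMT2D had 5642, 1731 and 1930 reads, KMT2C had 11114, 4171 and 4008, and SETD1B and KMT2B were at −1.33 and −1.15. TRRAP, a scaffold of acetyltransferase complexes, had 79964, 31331 and 33215 reads (−1.43 with si#1). The remodelers and their partners SRCAP (−1.59), ARID1A (−1.42), EP400 (−1.37) and ARID2 (−1.09), the receptor cofactor NCOA6 (−1.51), the Mediator subunits MED14 (−1.32) and MED13L (−1.09), and BCL9 (−1.44) fell too. At the other end KDM5A, a histone demethylase, was at −0.02, with 6496 reads in siNC and 6605 with si#1. The genes have long transcripts, and 42 of the 43 belonged to the 2376 genes with the longest. Among the other 2334 of these, 8.14% fell, against 42.9% of the coactivators. Because of how the list was made, that difference is no independent evidence either. Lengths within this group, from 6171 to 91667 bases, were not matched.

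Further falls with many reads were found outside of that list. SRRM2 and SON, scaffold proteins of nuclear speckles, had 13880 and 24238 reads in siNC, 3420 and 9035 with si#1 and 4232 and 8441 with si#2. With SRRM1 they were the only 3 of 22 measured splicing factors and speckle proteins past 2-fold, beside 5.57% of all measured genes. The list's median was 0.03. SPEN, a transcriptional repressor, had 8569, 2696 and 3109 reads. NFAT5, the transcription factor of the osmotic response, had 8919, 2158 and 2420 (−2.08 with si#1), HIPK2, a nuclear kinase, had 11750, 3274 and 2499, and LPP, a focal adhesion protein, had 14366, 4237 and 3882. BIRC3, an inhibitor of apoptosis and a target of NF-κB, had 12247, 3121 and 2187 reads, and TMEM131, a membrane protein, had 12863, 3823 and 3829. All of these were below siNC in both siRNA libraries. REL, a subunit of NF-κB, was at −1.38, while NFKBIA, the inhibitor of NF-κB, had 3349 reads in siNC and 5074 with si#1 (0.57). Of 21 NF-κB genes 2 fell and 0 rose, beside 3.8% and 1.77% of all measured genes.

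**Figure D3:**
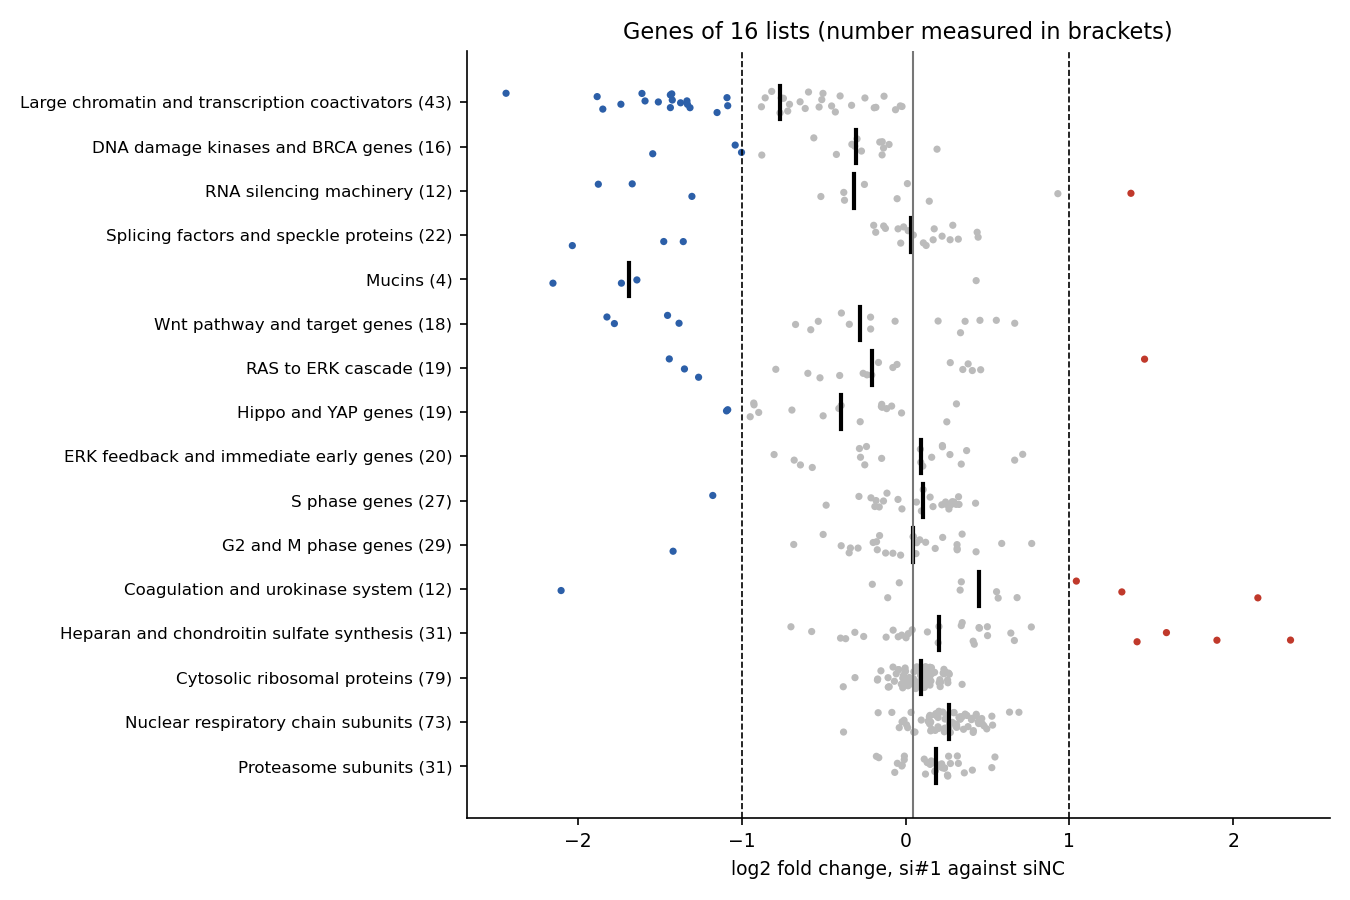
Log2 fold change with si#1 (horizontal axis) of each measured gene in 16 lists, with the number measured in brackets, a black bar at the list's median, a grey line at the median of all measured genes (0.05) and dashed lines at 2-fold. The coactivators reach −2.44 with a median of −0.77, while the 79 ribosomal protein genes lie between −0.38 and 0.35.

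Among genes that process small RNAs, TNRC6B, a silencing partner of Argonaute, had 6701 reads in siNC, 1884 in si#1 and 2109 in si#2, and DROSHA, the nuclease that starts microRNA processing, had 5962, 1912 and 2292. DICER1, which makes the mature duplex, had 19533, 8070 and 6922. AGO4, an Argonaute, rose from 394 reads to 1069 with si#1 and 719 with si#2. Of 12 measured genes of RNA silencing, 3 fell and 1 rose, beside 3.8% and 1.77% of all measured genes. Their median transcript length was 7881.5 bases against 3771 for all measured genes. Of 16 DNA damage kinases and BRCA genes, with a median length of 7885.5 bases, 3 fell, beside 3.8% of all measured genes. MDC1, a mediator at DNA breaks, had 2069, 727 and 1063 reads, BRCA2, which acts in homologous recombination, had 7350, 3649 and 3302, and PRKDC, the DNA-dependent protein kinase, had 117782, 63867 and 62825. BRCA2 was at −1.04, at −0.88 on the log2(TPM + 1) scale and at −0.65 after a fitted trend of the fold changes with transcript length and base composition was removed. PRKDC was just past the threshold, at −0.95 when the libraries were scaled with TMM factors instead and at −0.57 after removal of the trend.

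In the cascade from RAS to ERK, 3 of 19 measured genes fell and 1 rose, beside 3.8% and 1.77% of all measured genes, and the median was −0.21. EGFR, a receptor tyrosine kinase at the head of the pathway, had 48205 reads in siNC, 18560 in si#1 and 27887 in si#2 (−1.44 with si#1). SOS1, the exchange factor that loads RAS, had 2763, 1178 and 1105, and NF1, which switches RAS off, had 10952, 4354 and 4271. After removal of the trend SOS1 was at −0.98 and NF1 at −0.94, below 2-fold. MAPK3, which encodes ERK1, had 712, 2025 and 1984 reads (1.46). EGFR and SOS1 promote the cascade and NF1 restrains it, so the falls were of both kinds. None of 20 genes of ERK feedback and the immediate early response passed 2-fold in either direction, beside 5.57% of all measured genes. Their median was 0.09, with EGR1, a transcription factor induced by ERK, at −0.80 and IER2 at 0.71.

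Of 8 lncRNAs that the study linked to MAPK in more than 1 cell line and followed further, 6 were measured and 2 passed 2-fold, both lower. Beside LINC00941 this was NEAT1, the architectural RNA of paraspeckles, with 8637 reads in siNC, 2960 in si#1 and 2852 in si#2. The study lists LINC00941 as raised by MAPK and NEAT1 as lowered by it, so their links to MAPK have opposite directions. NEAT1 was at −1.56 with si#1, at −0.82 and −0.96 on the log2(TPM + 1) and log2(TPM + 0.01) scales and at −0.86 after the trend with transcript length and base composition was removed. CCDC18-AS1 had 283, 170 and 304 reads, LINC-PINT had 963, 623 and 593, SNAI3-AS1 had 209, 164 and 183, and SNHG4 had 336, 294 and 310. As the use of strand in counting is not given, reads of the antisense members and of the genes opposite them cannot be told apart. Of 6 genes that the study followed in both LINC00941 knockdown and MAPK attenuation, 3 were measured. They were chosen by the study on these libraries, so their values are a description. By quantitative PCR, the paper reports lower E2F7 with LINC00941 knockdown and higher E2F7 with forced expression of that lncRNA. It reports CD82 and F3 as higher under both conditions. The PCR measurements were not analysed here. E2F7, a repressor of E2F targets, had 3369 reads in siNC, 1579 in si#1 and 1425 in si#2 (−1.14 with si#1). CD82, a tetraspanin, had 2133, 4404 and 4345 reads (1.00), and F3 is described above (1.04). All 3 calls lay near the threshold. CD82 was at 0.98 with TMM factors and at 0.74 after removal of the trend, E2F7 was at −0.93 on the log2(TPM + 1) scale and at −0.997 after removal of the trend, and F3 was at 0.93 on that scale and at 0.95 on the log2(TPM + 0.01) scale. Of 13 E2F and RB genes E2F7 and RB1 fell, beside 3.8% of all measured genes. RB1 had 4443, 2199 and 2821 reads, and E2F1 had 4688, 6491 and 6710.

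Of 18 measured Wnt genes, 4 fell and 0 rose, with a median of −0.28, beside 3.8% of all measured genes that fell. Their median transcript length was 5304.5 bases against 3771 for all measured genes. TCF7L2, the transcription factor that binds beta-catenin, had 1796 reads in siNC, 536 in si#1 and 440 in si#2. APC, which targets beta-catenin for destruction, had 7263, 2729 and 3268, LGR5, a receptor of R-spondin, had 3638, 1425 and 1728, and NKD1, an inhibitor of Dishevelled, had 272, 80 and 144. TCF7L2 and LGR5 promote the pathway while APC and NKD1 restrain it. CTNNB1, beta-catenin itself, had 41158, 54200 and 49066 reads, and DVL1, a Dishevelled, had the highest value of the list at 0.67. Of 19 Hippo and YAP genes 2 fell, beside 3.8% of all measured genes. CCN2 and ANKRD1, both targets of YAP, fell from 505 to 241 and from 213 to 104 reads with si#1, and were at −0.70 and −0.55 on the log2(TPM + 1) scale. With si#2 they had 444 and 283, and ANKRD1 was then above siNC. YAP1 had 15899, 8659 and 10032 reads (−0.90 with si#1).

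MUC17, a membrane mucin of the intestine, had 3979 reads in siNC, 901 in si#1 and 1016 in si#2 (−2.15 with si#1). MUC13, another membrane mucin, had 3221, 1054 and 1042, and MUC1 had 1102, 339 and 384. Only 4 mucins were measured, of which these 3 fell, beside 3.8% of all measured genes, and MUC12 had 146, 205 and 209 reads. ESRP1, an epithelial splicing regulator, fell from 2096 reads to 907 with si#1 and 1073 with si#2, and EPCAM had 56602, 65707 and 56952. ANXA2, a calcium-dependent membrane-binding protein, had 128251 reads in siNC, 42571 in si#1 and 98279 in si#2. Its pseudogene ANXA2P2 had 186, 23 and 107, far fewer than the gene itself. ANXA13 fell from 1471 to 619 reads, so that 2 of 18 annexin and S100 genes fell, beside 3.8% of all measured genes. TSPAN13, a tetraspanin, had 3778, 1086 and 2975 reads, with a log2 fold change of −1.82 with si#1 and −0.33 with si#2.

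Of the genes of basement membrane contact, DST, a hemidesmosome linker protein, and ITGAV, the alpha V integrin, fell. DST had 56759 reads in siNC, 28095 in si#1 and 28780 in si#2, and ITGAV had 52644, 27120 and 42977. After the trend with length and base composition was removed, DST moved from −1.12 to −0.37 and ITGAV from −1.02 to −0.77, so that neither passed 2-fold. LAMB3, a chain of laminin-332, had 18359, 35828 and 29000 reads (0.93). PKP3, a plakophilin of desmosomes, rose from 9950 reads to 21175 and 26066, the 1 gene past 2-fold of 10 measured in its list, and DSG3, a desmosomal cadherin, had 5309, 3327 and 3098. Of the cell cycle genes, MKI67, the proliferation marker Ki-67, fell from 33230 reads to 12513 with si#1 and 11579 with si#2. It was the 1 gene of 29 for G2 and M phase past 2-fold, and the highest of them, PLK1, a mitotic kinase, had 6032, 10500 and 8885 reads. The median of these 29 genes was 0.05. Of 27 S phase genes TYMS, thymidylate synthase, fell from 2708 to 1231 reads, and MCM5, a subunit of the replicative helicase, had 8261, 11353 and 10879. CCNK, a cyclin of transcription, fell from 936 reads to 226 with si#1 and 150 with si#2, the 1 gene past 2-fold of 18. Beside these counts, 5.57% of all measured genes passed 2-fold in either direction.

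Single genes passed 2-fold in further lists, beside 5.57% of all measured genes past 2-fold in either direction. MAML2, a Notch coactivator, fell from 3987 to 1666 reads, OAS2, a sensor of double-stranded RNA, from 305 to 135, and INSIG1, a regulator of sterol synthesis, from 3168 to 1581. PFKFB4, a glycolytic regulator in hypoxia, rose from 69 to 152. The measured genes of interferon response and dsRNA sensing were otherwise below 2-fold, with ISG15 at 2303 reads in siNC and 3541 with si#1. None of 18 p53 targets, 18 genes of the unfolded protein response and 12 heat shock genes passed 2-fold. At the share of all measured genes, lists of this size would hold few such genes or none. Their medians were 0.25, 0.07 and 0.07.

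Genes of large housekeeping complexes stayed below 2-fold, while 5.57% of all measured genes passed it. None of 79 cytosolic ribosomal protein genes passed 2-fold, with a median of 0.10 and a range from −0.38 (RPL28) to 0.35 (RPL8). None of 73 nuclear genes of the respiratory chain did, with a median of 0.26 and NDUFS7 highest at 0.69, nor did any of 31 proteasome genes, with a median of 0.18. In the fifth of all measured genes with the most reads, 0.41% rose and 2.40% fell. At those shares, lists of these sizes would hold few such genes or none.

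The genes that fell had longer transcripts than those that rose. The median length of the longest annotated transcript was 5806 bases among genes that fell, 3140 among genes that rose and 3771 among all measured genes, of which 11882 (98.3%) had a length. In 5 groups of nearly equal size the median log2 fold change went from 0.16 in the shortest transcripts (up to 2057 bases) to −0.21 in the longest (from 6171 bases). In the longest group 208 genes fell (8.75%) and 23 rose. G and C content moved in the other direction. The genes that rose had a median of 57.1%, those that fell 45.1% and all measured genes 47.7%. The median log2 fold change went from −0.12 in the group with the least G and C to 0.28 in that with the most, where 100 genes rose and 47 fell. When genes were divided by both features together, long transcripts were lower than short ones at each level of G and C content. Among genes with more than 53% G and C the medians were 0.26 for the shortest, 0.24 for the middle and 0.08 for the longest transcripts. Length and G and C content also moved in the same direction with si#2. Their part in the fold changes was not tested. After a trend with both features was removed, 156 genes were at least 2-fold higher and 343 lower, and 15 of the 43 coactivators were still past 2-fold. Of the genes named by rule, 18 no longer passed 2-fold, among them ARID2, KMT2C, MED13L, DICER1, NF1, SOS1, RB1, PKP3, PPP1R14B, PFKFB4 and YWHAZ beside those given above.

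**Figure D4:**
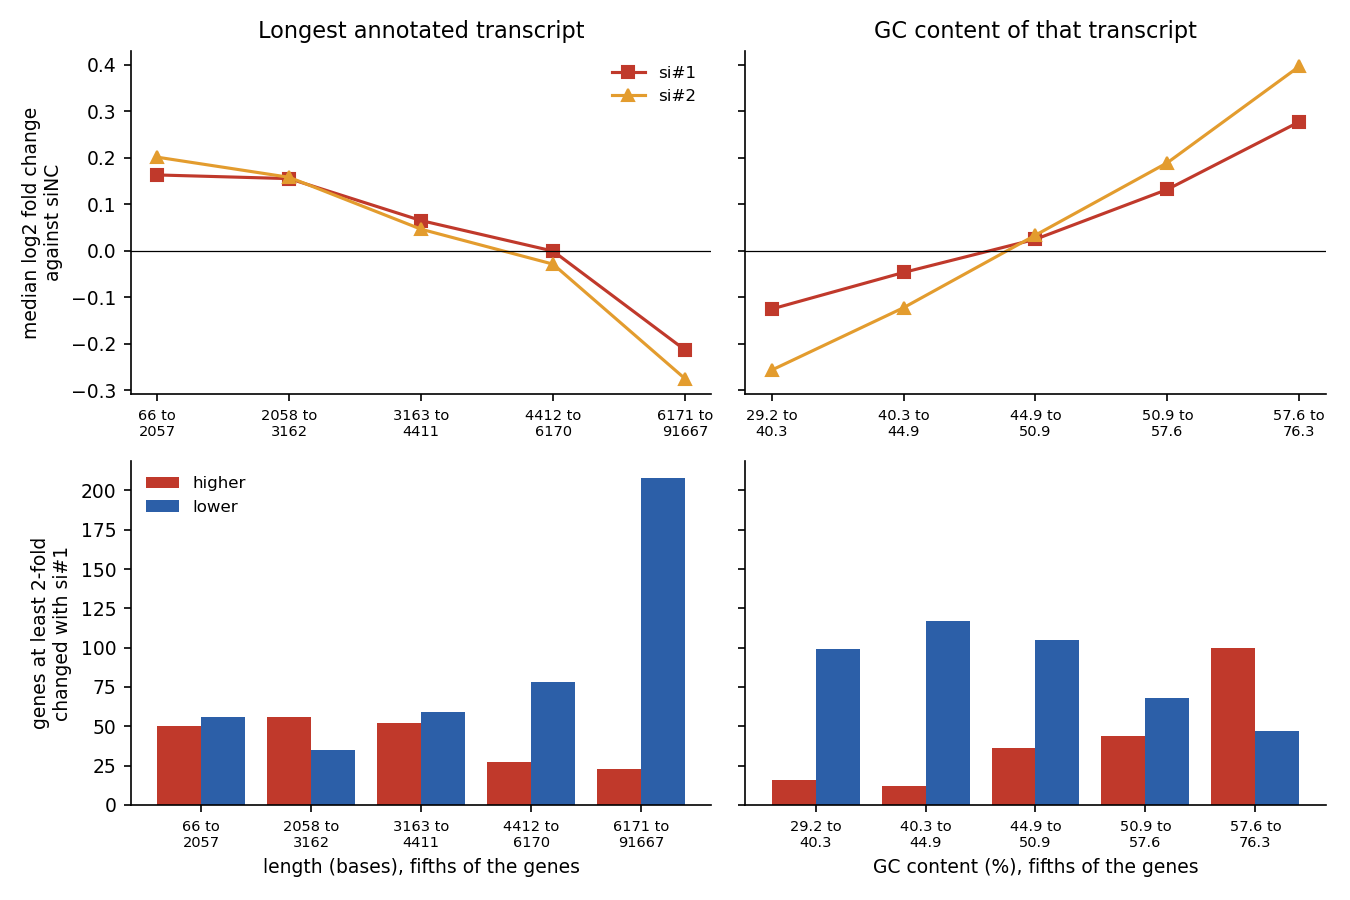
Measured genes in 5 groups of nearly equal size by length of the longest annotated transcript (left) and by its G and C content (right). The upper panels give the median log2 fold change for si#1 (squares) and si#2 (triangles) against siNC, and the lower panels count genes at least 2-fold higher (red) or lower (blue) with si#1, with 208 lower in the longest group.

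By class of RNA, of 11075 protein-coding genes, 194 rose and 377 fell (3.40%), and of 430 lncRNAs 16 rose and 32 fell (7.44%). Of 262 pseudogenes 31 fell (11.8%) and 3 rose. Readthrough genes, which join neighbours in 1 transcript, were past 2-fold in 30.3%, with 11 of 76 that rose and 12 that fell, against 5.57% of all measured genes. In some the genes they join did not pass 2-fold. UBE2F-SCLY went from 803 reads in siNC to 76 with si#1 and 1534 with si#2, while UBE2F had 3582 and 3014 and SCLY 1468 and 2157 reads in siNC and with si#1. SENP3-EIF4A1 went from 72 to 829 and 81, while EIF4A1 had 118334 and 137405. Over all 672 changed genes with a RefSeq position, 243 overlapped another listed gene. In 24 that gene moved the other way by at least 0.5 on the log2 scale, with at least 25% of the changed gene's change in reads. These limits were chosen after the values were seen. Overlaps were not counted for genes that did not change, so the counts have no share over all measured genes beside them.

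Of the 32 lncRNAs that fell, 3 more are given here, chosen after their values were seen, with 1 antisense RNA. MALAT1, an abundant lncRNA of nuclear speckles, had 119702 reads in siNC, 42063 in si#1 and 40281 in si#2 (−1.58 with si#1). TUG1 had 7901, 2956 and 3329, and KCNQ1OT1, an imprinted antisense transcript, had 1010, 298 and 346. TALAM1, which is antisense to MALAT1, had 1207, 443 and 305 reads, and the limit on antisense genes holds for this pair too. All 4 were below siNC in both siRNA libraries.

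Seed matches of the si#1 guide were counted in the longest annotated 3′ UTR of 11030 measured protein-coding genes. That UTR could come from any annotated transcript with a coding region, so in some genes it can hold bases that code for protein in other transcripts. SPEN had a UTR of 12875 bases beside a longest transcript of 13500, and APC 10546 beside 10920. How many matches lie in such bases was not counted. The match is CATGAAC, on the transcript strand. It was found in 1403 genes (12.7%), and in 26.8% of those that fell against 5.67% of those that rose. Genes with 0, 1 and 2 or more matches numbered 9627, 1229 and 174, and their median log2 fold changes with si#1 were 0.08, −0.10 and −0.23. Genes with matches had longer UTRs, however, with a median of 1674, 3470 and 5070.5 bases. Within the longest UTRs (from 2753 bases) the medians were −0.08, −0.15 and −0.23, so that the difference between 0 and at least 2 matches was −0.15 in place of −0.30. Of the genes with long UTRs, 4.33% fell without a match and 10.1% with 2 or more. In the middle group of UTR lengths 2.57% of genes without a match fell and 0 of 29 with 2 or more, and in the shortest 1.83% and 0 of 6.

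The match of the si#2 guide, TGAACAT, shares 5 bases with that of si#1 where both overlap. It went with lower values with si#1 as well, at 0.09, −0.10 and −0.22 for 0, 1 and 2 or more matches. It was found in 18.6% of these genes, in 35.5% of those that fell with si#1 and in 10.3% of those that rose. For genes with the si#1 match alone (882 genes) the median with si#1 was −0.03, for those with the si#2 match alone (1529 genes) −0.08, for those with both (521 genes) −0.23 and for those with neither (8098 genes) 0.11. The match of the other strand of the si#1 duplex, ATGGAGG, was found in 1980 genes, and within the longest UTRs its medians were −0.10, −0.10 and −0.08. UTR length and G and C content moved with the matches of both guides, and their part in the differences was not tested. The median G and C content of genes with 0 and with 2 or more si#1 matches was 48.3% and 42.1%.

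**Figure D5:**
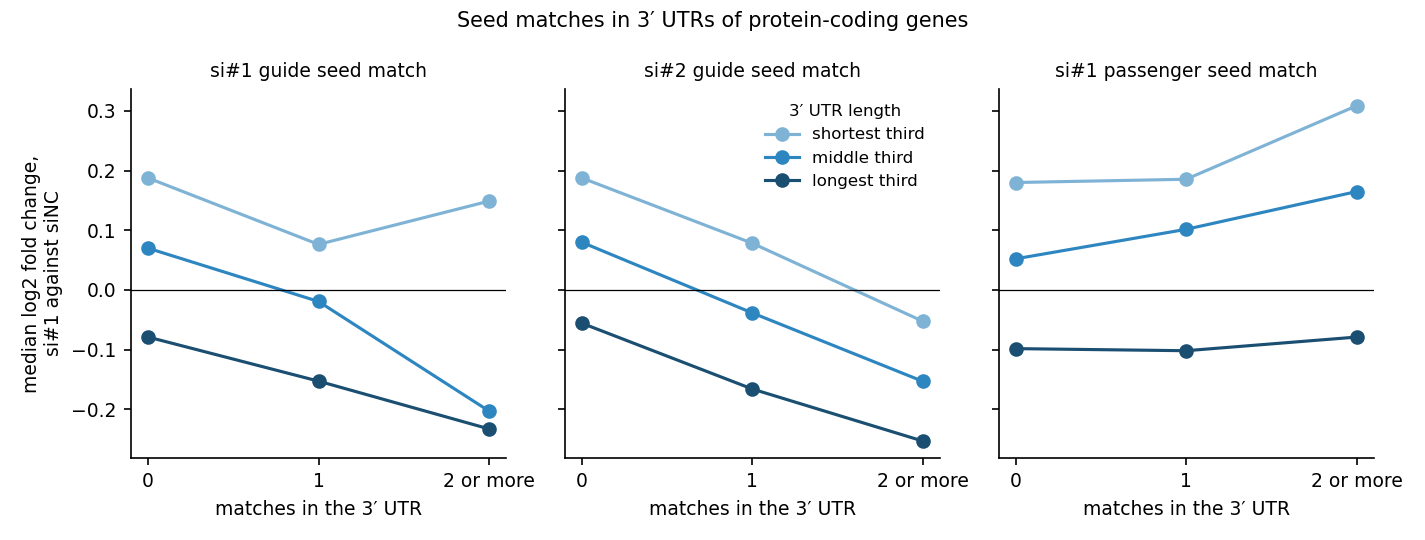
Median log2 fold change with si#1 of protein-coding genes with 0, 1 and 2 or more seed matches, for the guides of si#1 and si#2 and the passenger strand of si#1, in 3 groups by 3′ UTR length (light to dark, short to long). Long UTRs lie lower at each number of matches, and the guide matches of both siRNAs go with lower medians, to −0.23 and −0.25 in the longest UTRs.

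The 5 largest falls among genes with at least 2 si#1 matches are shown with their first site, to let the sites be compared with the target. Each lies in a 3′ UTR, is written on the transcript strand of GRCh38 and has the match in capitals.
TNRC6B, chr22:40323477-40323495, plus strand: aatacttgaatCATGAACg
PIK3CA, chr3:179234452-179234470, plus strand: attgcacaatcCATGAACa
LPP, chr3:188882510-188882528, plus strand: aagcagccctcCATGAACt
PEAK1, chr15:77111045-77111063, minus strand: agccacatgagCATGAACa
DCUN1D4, chr4:51914009-51914027, plus strand: aaaactgttacCATGAACa
Of the 19 bases of each site, 10, 10, 9, 11 and 9 equal the base of the LINC00941 target at the same position, in the order given. PIK3CA, the catalytic subunit of phosphoinositide 3-kinase, had 6280 reads in siNC, 1845 in si#1 and 4276 in si#2, log2 fold changes of −1.81 and −0.52. PEAK1, a pseudokinase of the cytoskeleton, had 2174, 702 and 447 reads, and DCUN1D4, a neddylation factor, had 7158, 2369 and 3138. TNRC6B and LPP, whose values are given above, were also far below siNC with si#2, and PEAK1 was lower with si#2 than with si#1. All 5 genes also hold si#2 guide matches in the same 3′ UTR, 3 in TNRC6B, 2 in DCUN1D4 and 1 each in PIK3CA, LPP and PEAK1.

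Pairing beyond the seed was counted as well. Among genes with a si#1 match, the 98 whose best site equals the target in 13 to 15 of 19 bases had a median of −0.16 with si#1 and 8 of them fell, and the 817 with 7 to 10 equal bases had a median of −0.10 and 57 fell. Of the 5 genes with 15 equal bases, none fell. AP2M1, an adaptor of clathrin, had 17168 reads in siNC and 21374 with si#1. Of the 25 genes with 14 equal bases 3 fell, and their median was −0.10. ONECUT2, among the largest falls, has such a site and was also lower with si#2 (−1.95). The 483 genes with 11 or 12 equal bases had a median of −0.15 and 34 of them fell. Of all measured protein-coding genes with a 3′ UTR, 3.35% fell. In every site 7 of the 19 bases are equal because of the match itself.

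At the minimum of 100 reads, PRSS22, a serine protease, was the gene nearest inside, with 51 reads in siNC, 149 in si#1 and 59 in si#2 and a log2 fold change of 1.52 (1.06 to 2.01). Just outside, 8 genes had a mean of 99.5 reads, from ABCA10 at −1.38 to LOC100129917 at 0.20.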

How the data were processed

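Total RNA of 3 AsPC-1 libraries (siNC, si#1 and si#2, 1 each) was prepared with a stranded total RNA kit. The authors aligned reads to GRCh38 with HISAT2 and assembled them with StringTie. Their versions, and whether counting used strand, are not given in the sources used here. Read counts and TPM per RefSeq gene are the authors' values, as deposited. Columns headed FPKM equal the read count in all 16463 genes and were not used. The authors' normalized columns are log2 values, which the log2 values computed here match. Columns of the authors' fold changes and volumes were not used, and 18 further per-sample columns, which could not be tied to a sample by their names, were left out, as was a short sheet that repeats some of these genes.

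The log2 of the read count plus 1 was quantile-normalized over all listed genes and the 3 libraries, and siNC was subtracted from si#1. Genes whose mean over siNC and si#1 reached 100 reads were kept and called at 2-fold, a log2 fold change of 1. Fold changes are on that scale and understate changes of genes with few reads. The libraries held 88690997 (siNC), 92510692 (si#1) and 90867405 (si#2) reads. Transcript length, G and C content and 3′ UTRs came from GENCODE release 44, matched by HGNC ID or symbol. Seed matches are the 7-base complements of guide bases 2 to 8, and siRNA strands were taken from the study's methods. Genes were named by a rule: the 15 largest rises and 15 largest falls among protein-coding and lncRNA genes that are not readthrough genes, the 8 largest of each where the mean reached 5000 reads, genes of 42 lists past 2-fold or at a list's end, genes the study names, genes nearest the count minimum, and 5 genes with seed matches. Some genes that the rule names are not reported here. Other genes are named as members of a described list or said to be chosen after their values were seen. The measured genes and lists were chosen with earlier results of these data known. The alternatives were TPM, TMM factors of edgeR 4.0.16, DESeq2 1.42.0 size factors, total count, other pseudocounts, count minimums and thresholds, and removal of a loess trend. The calculation was tested on simulated data. Software was R 4.3.3 and Python 3.11.15.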

Additional observations from a re-analysis of the deposited data

How the results depend on the processing

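The LINC00941 log2 fold change was −2.29 with log2(TPM + 1) and lay between −2.96 and −2.83, inside its counting interval, under the other alternatives run for it. The counts of genes at least 2-fold higher and lower were 78 and 202 with log2(TPM + 1), 667 and 910 where the mean reached 10 reads, and 980 and 1271 at 1.5-fold. Where the mean reached 500 reads 101 genes were higher, and with the whole counting interval beyond 2-fold 109 were higher. The other counts stayed within 1.5 times, at 206 and 481 with TMM factors, 207 and 479 with DESeq2 size factors, 271 and 417 with log2(TPM + 0.01), and 195 and 442 without readthrough genes and the genes they join, an alternative chosen after seeing the data. The median of all genes moved by −0.02 with TMM factors and by less with the other scalings. Of 104 named genes past 2-fold, none changed sign under the alternatives of scale, pseudocount, count minimum and trend, 101 stayed past 2-fold with TMM factors, 63 with log2(TPM + 1), whose pseudocount is large beside low TPM values, and 85 of 103 after the trend with length and G and C content was removed. CD82, PRKDC and YWHAZ did not pass 2-fold with TMM factors, DESeq2 size factors or total count. ANKHD1, F3, NEAT1, OAS2, PKP3 and YWHAZ did not with log2(TPM + 0.01). Those that did not with log2(TPM + 1) included 9 coactivators, RB1, E2F7, BRCA2, SOS1, REL, INSIG1, AGO4, CCN2, ANKRD1, NKD1, CHSY3, PXYLP1, FUT1, MYB, MBD6, NPIPB3 and NPIPB4. No paired analysis was possible because each condition has 1 library. Without replicates, differences between siRNAs, cultures and libraries cannot be told apart.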

Other observations

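Genes near LINC00941 were read as values that belong to no list. Within 1 Mb of its RefSeq position on chromosome 12 (30795681 to 30802711 of GRCh38), CAPRIN2, the nearest listed gene, had 4867 reads in siNC, 6270 in si#1 and 6314 in si#2, a log2 fold change of 0.34 with si#1. IPO8, an importin, had 8723, 5707 and 4327 reads (−0.62), and DDX11, a helicase, had 11247, 11874 and 14046 (0.06). DENND5B, an exchange factor of Rab proteins, was the only other measured gene of the window past 2-fold, with 8431, 4228 and 3482 reads (−1.01).

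Of gene families chosen after their values were seen, 17 genes of the NPIP and NBPF families, which are near-identical copies, held 5 falls (29.4%, beside 3.8% of all measured genes) and a median of −0.18. Of 35 C/D box snoRNAs, 3 fell (8.57%) and their median was −0.23, and of 28 H/ACA box snoRNAs 3 fell (10.7%) with a median of −0.33, beside the same 3.8%. None of 68 histone genes passed 2-fold, with a median of 0.12, and none of 19 snoRNA host genes did (−0.09), beside 5.57% of all measured genes. Of 368 zinc finger genes 8 rose (2.17%) and 9 fell (2.45%), and of 192 solute carriers 3 rose (1.56%) and 1 fell (0.52%). The shares of all measured genes were 1.77% and 3.8%.

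Among the genes past 2-fold with the most reads, also chosen after their values were seen, AHNAK, a very large scaffold protein, had 300623 reads in siNC, 128768 in si#1 and 151575 in si#2, FAT1, a giant cadherin, had 172100, 61647 and 78375, and VCAN, a large matrix proteoglycan, had 115073, 53524 and 44185.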
